A study of Saccharomyces cerevisiae S288C with 71 samples.

Results

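The transcripts described here come from 10 genes of the ergosterol branch in budding yeast, the enzymes that carry farnesyl pyrophosphate through squalene and lanosterol to ergosterol. They were taken by symbol from the 5803 genes of the table: ERG9, ERG1, ERG7, ERG11, ERG24, ERG25, ERG6, ERG3, ERG5 and ERG4. All 10 were found, and all 10 passed the filter on low values (at least 1 TPM in at least 2 libraries), as did 5766 genes in all. TPM is a length-corrected share of a library, so levels of different genes can be set side by side.

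The RNA came from Saccharomyces cerevisiae S288C cultures shaken at 30 C in yeast nitrogen base with ammonium and 2% glucose, sampled at 0 h (log phase), 12 h and 16 h, a window in which the wild type goes through its diauxic shift from fermentation to respiration. Besides wild type (wt) there were single deletions of COQ2, which acts in coenzyme Q synthesis, or COX4, a cytochrome c oxidase subunit. Both genes serve the electron transport chain. Deletions of RAS2 (a GTPase of the glucose and cyclic AMP pathway), RTS1 (a phosphatase regulatory subunit) and TCO89 (a TORC1 subunit) were named by the submitters as suppressors of the lethality that such mutants show on starvation. These were sampled alone and in the 6 double mutants: coq2 ras2, coq2 rts1, coq2 tco89, cox4 ras2, cox4 rts1 and cox4 tco89. The 12 strains at 3 times make 36 groups and 71 libraries, 2 per group except for cox4 rts1 at 16 h, which has 1. The labels describe the libraries of a group as technical replicates and give no number of strain isolates or cultures, so every p-value measures only the spread between such libraries. A pair of values is given in the column order of the table, library a before library b.

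Ergosterol is the main sterol of the yeast plasma membrane. Its synthesis uses molecular oxygen at several steps, those of ERG1, ERG11, ERG25, ERG3 and ERG5, and several of the enzymes need heme or iron. The transcription factors Upc2 and Ecm22 bind sterol elements in the promoters of many of these genes and raise transcription when sterols fall, while Hap1, Rox1 and Mot3 link the pathway to heme and oxygen.

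Each deleted gene was low in the strains that lack it. The highest reading was that of COX4, at 0.115 to 72.3 TPM in 23 libraries without the gene. The 48 libraries with it read 283 to 3463 TPM. The top value of 72.3 TPM belongs to library a of cox4 tco89 at 16 h, whose partner b read 2.95 TPM. The narrowest gap was that of COQ2, at 0.1 to 2.95 TPM in 24 libraries without the gene. The 47 libraries with it read 5.55 to 60.2 TPM. At 12 h COQ2 read 2.95 TPM in library b of coq2 rts1 and 2.27 TPM in library a of coq2. Across all genes the 2 libraries of a group correlated at Pearson r = 0.986 to 0.998. For the 10 ergosterol genes the median gap between the libraries of a group ran from 0.05 (ERG25) to 0.15 (ERG5) on the log2 scale, and the widest was 0.75, for ERG6 in coq2 rts1 at 12 h. CUP1-1, a metallothionein gene with near-identical copies in the genome, took a share large enough to press on all other values. In wt at 16 h it reached 54677 and 59727 TPM, in coq2 178655 and 194129 TPM and in cox4 191671 and 207862 TPM. A lower TPM and fewer transcripts per cell cannot be told apart, and neither can a change in all cells and a change in some.

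The top and the bottom of the order of levels were held by few genes. ERG7, lanosterol synthase, which folds oxidosqualene into the first sterol, was the lowest of the 10 in 71 of 71 libraries. ERG25, the oxidase that starts the removal of the paired methyl groups of lanosterol products, was the highest in 47 libraries, and ERG3, the sterol desaturase of the ring, was the highest in the other 24. ERG25 was among the top 2 in 71 libraries and ERG3 in 70. Over all libraries ERG25 ranged from 160 to 2012 TPM with a median of 657, and ERG3 from 167 to 1481 TPM with a median of 598. ERG7 ranged from 9.16 to 69.9 TPM with a median of 16.3. ERG9, squalene synthase, which commits farnesyl pyrophosphate to sterols, moved least: it ranged from 100.2 to 244 TPM with a median of 173. ERG5, a cytochrome P450 that desaturates the side chain, moved most. Its group means spanned 23.9-fold, from 20.4 TPM in cox4 at 16 h to 489 TPM in coq2 tco89 at 12 h. The span was 19.8-fold for ERG6, the methyltransferase of the side chain, and 14.8-fold for ERG4, the reductase of the last step. It was 2.26-fold for ERG9. The remaining 6 genes spanned 5.33-fold (ERG24) to 11.0-fold (ERG25). For 6 of the genes the lowest group mean was that of cox4 at 16 h: ERG1, ERG11, ERG24, ERG25, ERG5 and ERG4.

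**Figure D1:**
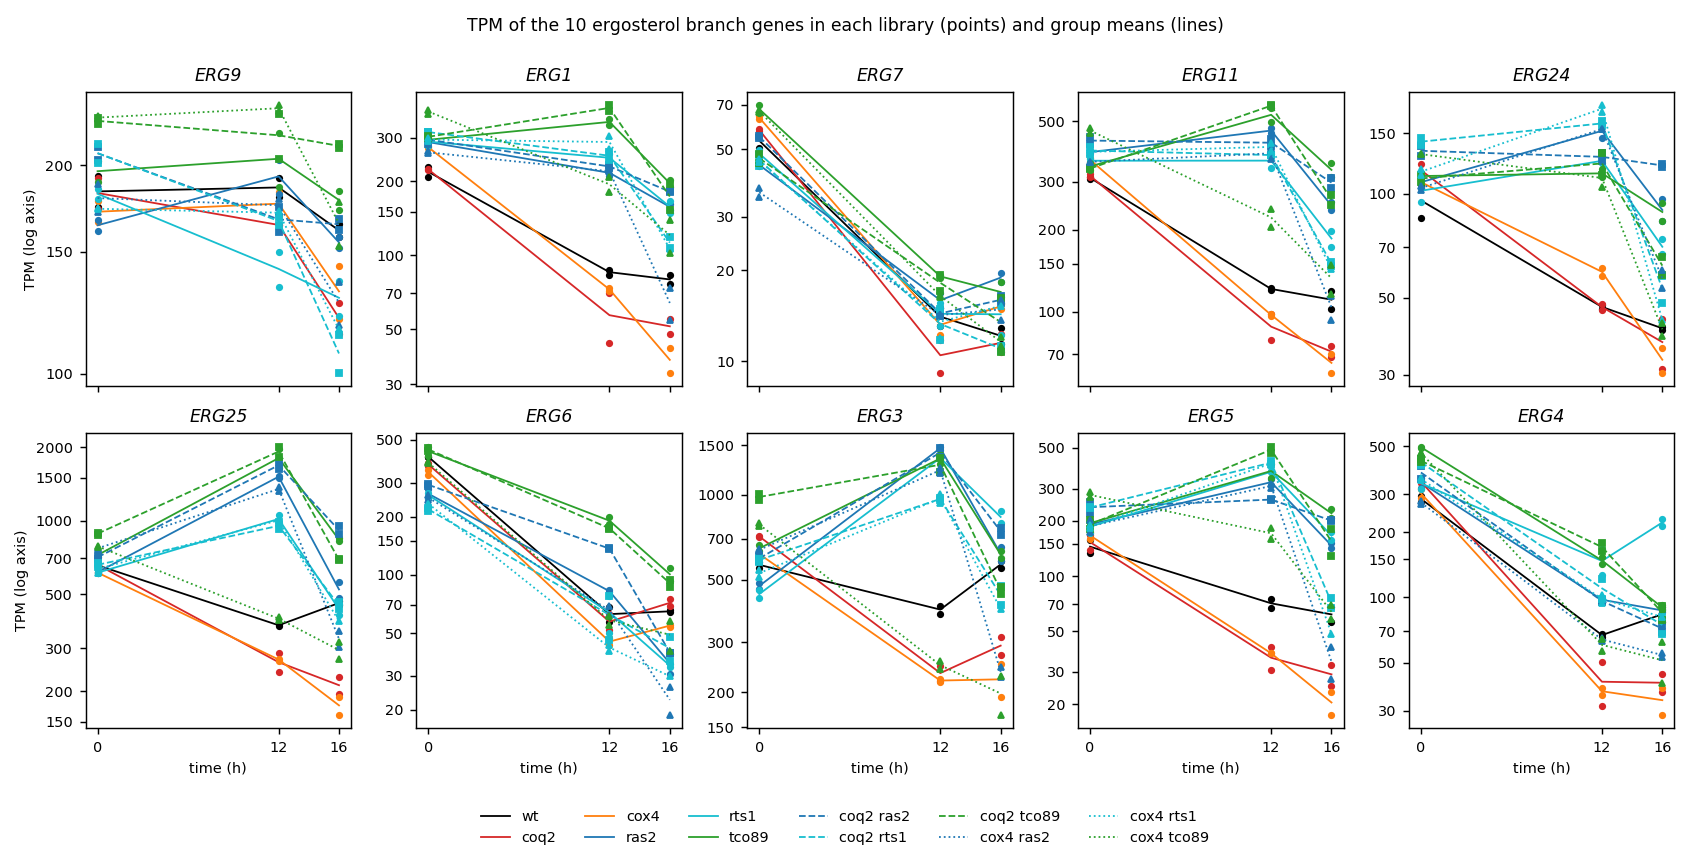
TPM (log axis) against time in hours for each of the 10 genes. Points are libraries, lines join group means, and colours and line types mark the 12 strains. Most strains lie close together at 0 h. At 12 h wt, coq2, cox4 and cox4 tco89 lie below the other strains for ERG1, ERG11, ERG25, ERG3 and ERG5, while ERG7, ERG6 and ERG4 drop in every strain.

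In log phase the strains were close. Over 24 libraries at 0 h the ratio of the highest to the lowest value of a gene ran from 1.46 (ERG9) to 2.34 (ERG3). None of the 10 genes passed the threshold (at least 2-fold, limma adjusted p under 0.05) in any of 21 comparisons of strains at 0 h, although 53 of the 210 gene-by-comparison values had an adjusted p under 0.05. The largest of the differences was that of ERG7 between cox4 ras2 (36.1 TPM) and cox4 (63.6 TPM), a log2 difference of -0.80 (SE 0.13). In the same 21 comparisons the share of all genes past the threshold in a given direction ran from 0.0694% to 6.04%.

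In wild type most of the branch fell as the cultures left log phase. ERG6 stood at 410 and 407 TPM at 0 h, at 68.2 and 57.2 TPM at 12 h and at 64 and 65.7 TPM at 16 h. ERG4 went from 296 and 276 TPM to 68.1 and 66.0 TPM and then 90.5 and 76.8 TPM. ERG7 went from 56.4 and 50.4 TPM to 13.1 and 15 TPM and then 11.4 and 12.9 TPM. For these 3 genes every library at 0 h was above every later library. The share of all genes whose libraries separate in this way is not given, here or in the comparisons below. ERG1, squalene epoxidase, the target of terbinafine, stood at 229 and 208 TPM, then 87.5 and 83.3 TPM, then 83.2 and 76.4 TPM. ERG11, the lanosterol demethylase that azole drugs inhibit, stood at 313 and 308 TPM, then 121 and 122 TPM, then 119 and 102 TPM. The 2 libraries of each time again did not overlap with those of 0 h. ERG24, the reductase that follows ERG11, stood at 106 and 85.2 TPM, then 46.4 and 47.8 TPM, then 41.2 and 40.4 TPM. ERG5 stood at 157 and 133 TPM, then 75.2 and 66.9 TPM, then 67.6 and 56.0 TPM. These 7 genes passed the threshold as lower at 12 h and again at 16 h, where 27.7% and 28.9% of all genes tested were lower and 17.7% were higher at each time.

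On the log2(TPM + 1) scale the falls from 0 to 12 h were -2.69 (SE 0.16) for ERG6, -2.07 (SE 0.15) for ERG4, -1.86 (SE 0.13) for ERG7, -1.35 (SE 0.10) for ERG11, -1.34 (SE 0.13) for ERG1 and -1.01 (SE 0.15) for ERG5, with ERG24 (SE 0.11) just past 2-fold. The adjusted p-values ran from 7.5e-19 to 6.3e-08. ERG5 and ERG24 sat at the 2-fold limit: with libraries rescaled by the median ratio over genes their changes were -0.74 and -0.72. In that scaling 5 of the 10 genes passed as lower at each time, beside 21.9% of all genes. The same 5 passed at 12 h when the wt library with the higher ERG24 value at 0 h was left out.

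The other 3 genes did not pass in wild type. ERG9 stood at 193 and 174 TPM, then 180 and 192 TPM, then 165 and 158 TPM, so its libraries at 0 and 12 h overlapped. ERG25 stood at 657 and 655 TPM, then 376 and 369 TPM, then 468 and 452 TPM, a log2 difference of -0.82 (SE 0.09) at 12 h that stayed short of 2-fold. ERG3 stood at 580 and 549 TPM, then 405 and 379 TPM, then 584 and 549 TPM. Its log2 difference from 0 h was -0.53 (SE 0.10) at 12 h and 0.01 at 16 h. Between 12 and 16 h in wt none of the 10 genes passed, against 0.225% of all genes higher and 0.156% lower. The largest value was that of ERG3, 0.53 (SE 0.10, adjusted p = 0.00048). The median log2 change of the 10 genes from 0 h was -1.18 at 12 h and -1.33 at 16 h, beside -0.24 over all genes at both times.

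Over the 12 strains, 3 patterns in time could be told apart by count. ERG7 and ERG6 fell in 12 of 12 strains at 12 h and at 16 h, and ERG4 fell in 12 of 12 at 12 h and 11 of 12 at 16 h. The share of all genes that fell ran from 17% to 35.2% over the strains at 12 h and from 18.6% to 45.5% at 16 h. With median-ratio scaling 11 of the 12 remained past the threshold at 12 h for each of the 3 genes, and 10 (ERG7), 12 (ERG6) and 11 (ERG4) at 16 h. The deepest falls were -3.44 for ERG6 in cox4 ras2 at 16 h, from 258 and 245 TPM to 18.9 and 26.2 TPM, and -3.19 for ERG4 in cox4 tco89 at 16 h, from 466 and 466 TPM to 40.4 and 62.2 TPM. The exception for ERG4 was rts1, where the libraries stood at 358 and 316 TPM at 0 h, 128 and 167 TPM at 12 h and 230 and 214 TPM at 16 h. The 16 h libraries of rts1 lay above all other libraries of that time for ERG4.

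ERG9 stood at the other extreme, past the threshold in none of 12 strains at either time. Its log2 change ran from -0.36 (rts1) to 0.23 (ras2) at 12 h and from -0.96 (coq2 rts1) to -0.08 (ras2) at 16 h. The 6 remaining genes went different ways in different strains at 12 h. ERG25 rose in 4 strains (ras2, tco89, coq2 ras2 and coq2 tco89) and fell in 2 (coq2 and cox4). ERG3 rose in 4 (ras2, rts1, tco89 and coq2 ras2) and fell in 3 (coq2, cox4 and cox4 tco89). ERG5 rose in 2 (coq2 tco89 and cox4 rts1) and fell in 3 (wt, coq2 and cox4). ERG11 fell in 4 strains, ERG1 in 3 and ERG24 in 2, and none of these 3 rose. The share of all genes that rose at 12 h ran from 7.93% to 17.7% over the strains. With median-ratio scaling the 2 falls of ERG25, the 2 of ERG24, that of ERG11 in cox4 tco89 and that of ERG5 in wt no longer passed, while the 10 rises of ERG25, ERG3 and ERG5 did. Without the tco89 library with the higher ERG3 value, the rise of ERG3 in tco89 fell short. At 16 h none of the 10 genes was higher than at 0 h in any strain, where 10.5% to 20.4% of all genes were.

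By strain, the count of the 10 genes that fell by 12 h was 9 in coq2 (35.2% of all genes), 8 in cox4 (30.7%) and 5 in cox4 tco89 (33.3%). It was 3, those of ERG7, ERG6 and ERG4, in each of ras2 (23.6%), rts1 (28.3%), tco89 (20.8%), coq2 ras2 (23%), coq2 rts1 (27.9%), coq2 tco89 (17%), cox4 ras2 (18.1%) and cox4 rts1 (31.3%). The shares of all genes that rose were 9.69% in ras2, 15.5% in tco89, 7.93% in coq2 ras2 and 12.7% in coq2 tco89, where 2 of the 10 rose, 11.5% in rts1 and 12.4% in cox4 rts1, where 1 rose, and 7.94% in cox4 ras2, where none did. With median-ratio scaling the rises numbered 3 in each of ras2 (14.6% of all genes in that scaling), rts1 (17.7%), tco89 (17.9%) and cox4 ras2 (12.3%). They numbered 4 in cox4 rts1 (20.2%) and 2 in coq2 rts1 (17.9%), the last near its share. At 16 h 9 genes had fallen in coq2 (38.8%), cox4 (36.5%) and cox4 tco89 (45.5%), 8 in cox4 ras2 (31.4%; 14.3% rose) and 7 in coq2 rts1 (30.1%) and cox4 rts1 (28.9%). There were 4 in coq2 tco89 (26.7%), 3 in ras2 (18.6%), tco89 (23.2%) and coq2 ras2 (23.3%) and 2 in rts1 (20%; 19% rose). Median-ratio scaling gave 6 in coq2 (23.3% of all genes in that scaling) and 5 in cox4 tco89 (21.3%) at 16 h.

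**Figure D2:**
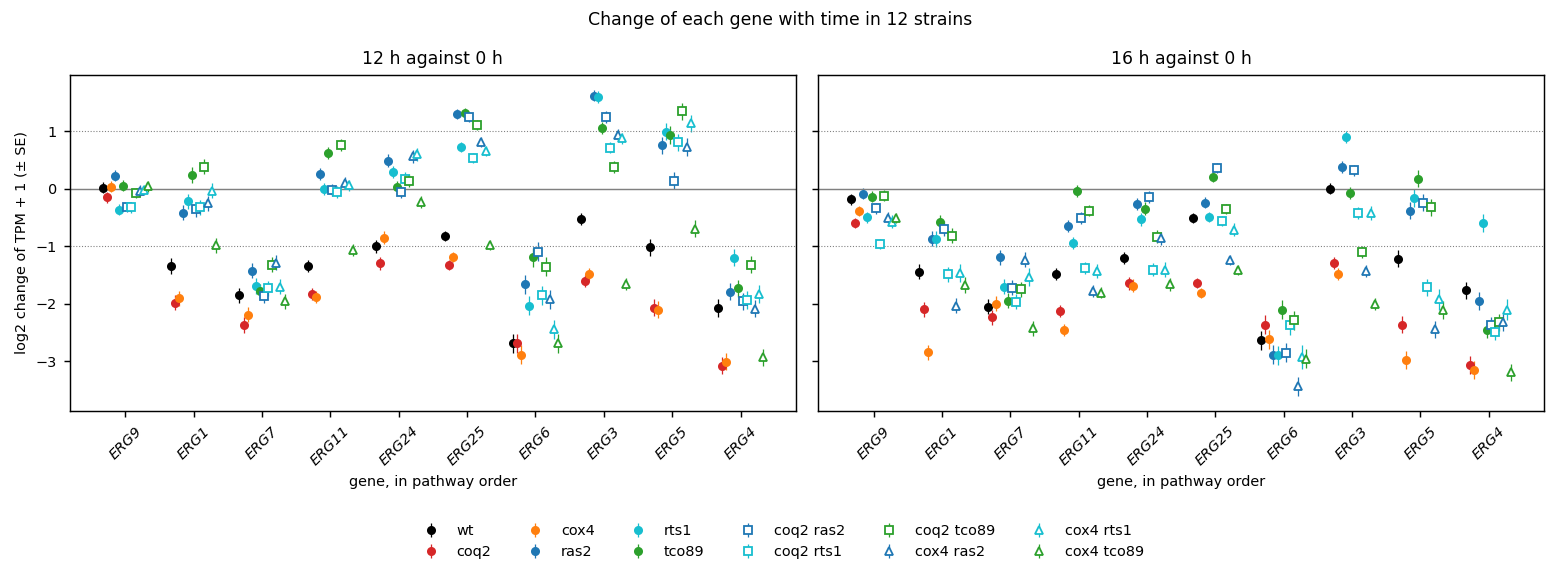
Log2 change of TPM + 1 from 0 h to 12 h (left) and to 16 h (right) for each gene in pathway order, with SE from limma. Each point is a strain and dotted lines mark 2-fold. ERG7, ERG6 and ERG4 lie below 0 in every strain, ERG9 lies within 2-fold of 0 h in every strain, and ERG25, ERG3 and ERG5 lie on both sides of 0 at 12 h.

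The electron transport chain mutants were compared with wild type to see how strains without COQ2 or COX4 differed at each time. At 12 h none of the 10 genes passed in coq2 or cox4, where 4.37% and 2.43% of all genes were lower and 0.295% and 0.832% higher. ERG5 came within reach: without wt library b or without coq2 library a it passed in coq2, in the latter case with ERG4. ERG5 stood at 40.9 and 30.8 TPM in coq2 and 38.0 and 37.9 TPM in cox4 against 75.2 and 66.9 TPM in wt, log2 differences of -0.98 (SE 0.15) and -0.89 (SE 0.15). At 16 h cox4 had 5 genes lower than wt (9.52% of all genes lower, 1.99% higher) and coq2 had 3 (12.3% lower, 1.35% higher). ERG25, ERG5 and ERG4 were lower in both strains, and ERG1 and ERG3 in cox4 only by this threshold.

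At 16 h ERG5 stood at 23.3 and 17.6 TPM in cox4 and 32.9 and 25.3 TPM in coq2, against 67.6 and 56.0 TPM in wt. Its log2 difference from wt was -1.56 (SE 0.15, adjusted p = 8.9e-12) in cox4 and -1.07 (SE 0.15, adjusted p = 5.8e-08) in coq2. ERG25 stood at 189 and 160 TPM in cox4 and 229 and 194 TPM in coq2 against 468 and 452 TPM in wt, differences of -1.40 (SE 0.09) and -1.12 (SE 0.09). No library of either mutant reached the wt range for these genes. ERG3 stood at 251 and 193 TPM in cox4 and 314 and 270 TPM in coq2, against 584 and 549 TPM, differences of -1.36 (SE 0.10) and -0.96 (SE 0.10). ERG4 stood at 38.3 and 28.8 TPM in cox4 and 44.2 and 36.5 TPM in coq2, against 90.5 and 76.8 TPM, differences of -1.30 (SE 0.15) and -1.04 (SE 0.15). ERG1 stood at 41.9 and 33.3 TPM in cox4 and 55.0 and 48.0 TPM in coq2, against 83.2 and 76.4 TPM, differences of -1.07 (SE 0.13) and -0.62 (SE 0.13). ERG7 and ERG6, the genes that fell in every strain, differed from wt by between -0.24 and 0.30 in these 2 mutants at 16 h.

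These calls lean on the scale. The median of all genes was -0.39 in coq2 and -0.31 in cox4 against wt at 16 h, in the libraries where CUP1-1 took its largest shares. With median-ratio scaling none of the 3 genes remained past the threshold in coq2 (ERG25 at -0.70, ERG5 at -0.65 and ERG4 at -0.62) and 3 remained in cox4 (ERG25, ERG3 and ERG5). In coq2 the calls of ERG5 and ERG4 were also lost without the wt library with the higher ERG4 value at 16 h, and without the coq2 library with the lower one, and 1 gene (ERG25) was left in each case. Both mutants are compared with the same wt libraries. Set against each other, coq2 and cox4 differed in none of the 10 genes at 0, 12 or 16 h, where 0.173%, 0.052% and 0.0694% of all genes were higher in coq2 and 0.104%, 0.555% and 0.295% lower. Without a fold limit, limma gave an adjusted p under 0.05 to ERG24 at 12 h (-0.33, SE 0.11) and to ERG1 (0.45, SE 0.13), ERG3 (0.40, SE 0.10) and ERG5 (0.49, SE 0.15) at 16 h.

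The suppressor deletions were compared with wild type to see their own effect. At 12 h 6 of the 10 genes were higher in ras2 (5.01% of all genes higher, 11.9% lower), 7 in rts1 (3.9% higher, 14.2% lower) and 8 in tco89 (7.08% higher, 4.89% lower). None was lower. ERG1, ERG11, ERG24, ERG25, ERG3 and ERG5 were higher in all 3, ERG4 in rts1 and tco89, and ERG6 in tco89. The 3 strains share the wt libraries they are compared with.

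ERG25 stood at 1530 and 1501 TPM in ras2, at 1054 and 980 TPM in rts1 and at 1962 and 1652 TPM in tco89 at 12 h, against 376 and 369 TPM in wt. ERG3 stood at 1447 and 1481 TPM in ras2, at 1362 and 1340 TPM in rts1 and at 1401 and 1291 TPM in tco89, against 405 and 379 TPM. ERG5 stood at 314 and 337 TPM, at 369 and 373 TPM and at 408 and 341 TPM in the same order, against 75.2 and 66.9 TPM. No library of a suppressor came near the wt libraries for these genes. The log2 differences for ERG5, the largest of the 10 in each strain, were 2.18 in ras2, 2.37 in rts1 and 2.38 in tco89 (SE 0.15 each, adjusted p at most 1.4e-16). For ERG25 they were 2.02, 1.45 and 2.27 (SE 0.09), for ERG3 1.90, 1.78 and 1.78 (SE 0.10) and for ERG11 1.92, 1.55 and 2.11 (SE 0.10). ERG1 followed at 1.33, 1.53 and 2.01 (SE 0.13) and ERG24 at 1.67, 1.39 and 1.27 (SE 0.11).

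ERG6 set tco89 apart: it stood at 199 and 183 TPM there, against 68.2 and 57.2 TPM in wt, 83.6 and 81.2 TPM in ras2 and 50.0 and 78.0 TPM in rts1. ERG4 stood at 143 and 153 TPM in tco89 and 128 and 167 TPM in rts1 against 68.1 and 66.0 TPM in wt. The rts1 call for ERG4 was lost without its library at 167 TPM, and the tco89 call with median-ratio scaling, where its difference was 0.98. ERG7 and ERG9 passed in none of the 3. ERG7 stood at 16.8 and 15 TPM in ras2, 13.1 and 15.6 TPM in rts1 and 19.2 and 18.9 TPM in tco89, against 13.1 and 15 TPM in wt. CUP1-1 moved the other way in the same libraries, at 4580 and 4896 TPM in ras2, 21302 and 21163 TPM in rts1 and 18263 and 18070 TPM in tco89 against 55286 and 53551 TPM in wt. Its part in the differences was not tested. The median log2 difference of the 10 genes was 1.5 in ras2, 1.42 in rts1 and 1.69 in tco89, beside -0.14, -0.28 and 0.18 over all genes. Median-ratio scaling kept all 6 calls in ras2, all 7 in rts1 and 7 of 8 in tco89.

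By 16 h the gap to wild type was narrower. In ras2, 3 genes remained higher (7.37% of all genes higher, 7.75% lower), in rts1 2 (6.56% and 4.53%) and in tco89 4 (5.6% and 4.41%). ERG5 was higher in all 3, at 152 and 142 TPM in ras2, 174 and 158 TPM in rts1 and 233 and 207 TPM in tco89 against 67.6 and 56.0 TPM in wt. ERG11 and ERG24 were higher in ras2 and tco89 (5 genes in ras2 without its library b, with ERG1 higher and ERG6 lower added), ERG1 in tco89 and ERG4 in rts1. ERG25 stood at 561 and 484 TPM in ras2, 457 and 411 TPM in rts1 and 846 and 826 TPM in tco89, against 468 and 452 TPM, and did not pass in any. ERG6 had log2 differences of -0.88 (SE 0.16) in ras2 and -0.91 (SE 0.16) in rts1, short of 2-fold. With median-ratio scaling 1 gene, ERG6, passed as lower in rts1, and ERG24 in tco89 no longer passed (0.93).

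The double mutants were compared with their electron transport chain single mutant to ask what the suppressor deletion changed. At 12 h it went with higher sterol transcripts in all 6. The number of the 10 genes that were higher was 8 in coq2 ras2 (13.8% of all genes higher), 7 in coq2 rts1 (7.01%) and 8 in coq2 tco89 (21.2%), each against coq2. It was 6 in cox4 ras2 (8.45%), 7 in cox4 rts1 (4.79%) and 3 in cox4 tco89 (2.71%), each against cox4. None of the 10 was lower, where 2.93% to 12.2% of all genes were. ERG1, ERG11 and ERG5 were higher in 6 of 6 doubles, and ERG24, ERG25 and ERG3 in all but cox4 tco89. ERG4 was higher in coq2 ras2, coq2 rts1, coq2 tco89 and cox4 rts1, and ERG6 in coq2 ras2 and coq2 tco89. ERG9 and ERG7 did not pass in any.

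ERG5 gave the widest differences of these comparisons. It stood at 40.9 and 30.8 TPM in coq2 and at 508 and 471 TPM in coq2 tco89 at 12 h, a 13.4-fold difference (log2 3.75, adjusted p = 4.3e-24). It stood at 425 and 407 TPM in coq2 rts1, 11.4-fold above coq2, and at 262 and 261 TPM in coq2 ras2, 7.19-fold above. Against 38.0 and 37.9 TPM in cox4 it stood at 406 and 418 TPM in cox4 rts1, at 301 and 319 TPM in cox4 ras2 and at 160 and 183 TPM in cox4 tco89. ERG25 in coq2 had 286 and 240 TPM, beside 1739 and 1638 TPM in coq2 ras2, 984 and 922 TPM in coq2 rts1 and 2012 and 1833 TPM in coq2 tco89. In cox4 it stood at 272 and 267 TPM, against 1330 and 1369 TPM in cox4 ras2, 995 and 1014 TPM in cox4 rts1 and 391 and 402 TPM in cox4 tco89. The last of these was the only double whose ERG25 and ERG3 stayed near the electron transport chain mutant: ERG3 stood there at 241 and 257 TPM, against 222 and 217 TPM in cox4.

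At 16 h fewer genes were higher than in the single mutant, except in cox4 tco89, where the number was again 3 (3.24% of all genes higher). There were 6 in coq2 ras2 (19.1%), 4 in coq2 rts1 (10.8%), 5 in coq2 tco89 (16.4%), 5 in cox4 rts1 (11.3%) and none in cox4 ras2 (10.8%). In cox4 ras2 1 gene was lower (7.15% of all genes), ERG6, at 18.9 and 26.2 TPM against 55.3 and 54.1 TPM in cox4. When cox4 library a or cox4 ras2 library a was left out, ERG25 also passed, as higher in cox4 ras2. ERG5 and ERG1 were higher in 5 of the 6 doubles and ERG11 in the same 5. For coq2 ras2 median-ratio scaling gave 5 genes higher and 1 lower (10.9% and 11.9% of all genes). Quantile normalization gave the same counts (11.4% and 11.1%). The lower gene was ERG6, whose log2 difference was -0.84 in the main fit and reached -1.19 among the alternatives. The 4 of coq2 rts1 were 1.06 to 1.28 on the log2 scale and became 1 (ERG5) with median-ratio scaling, and 2 without the coq2 library with the lower values.

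**Figure D3:**
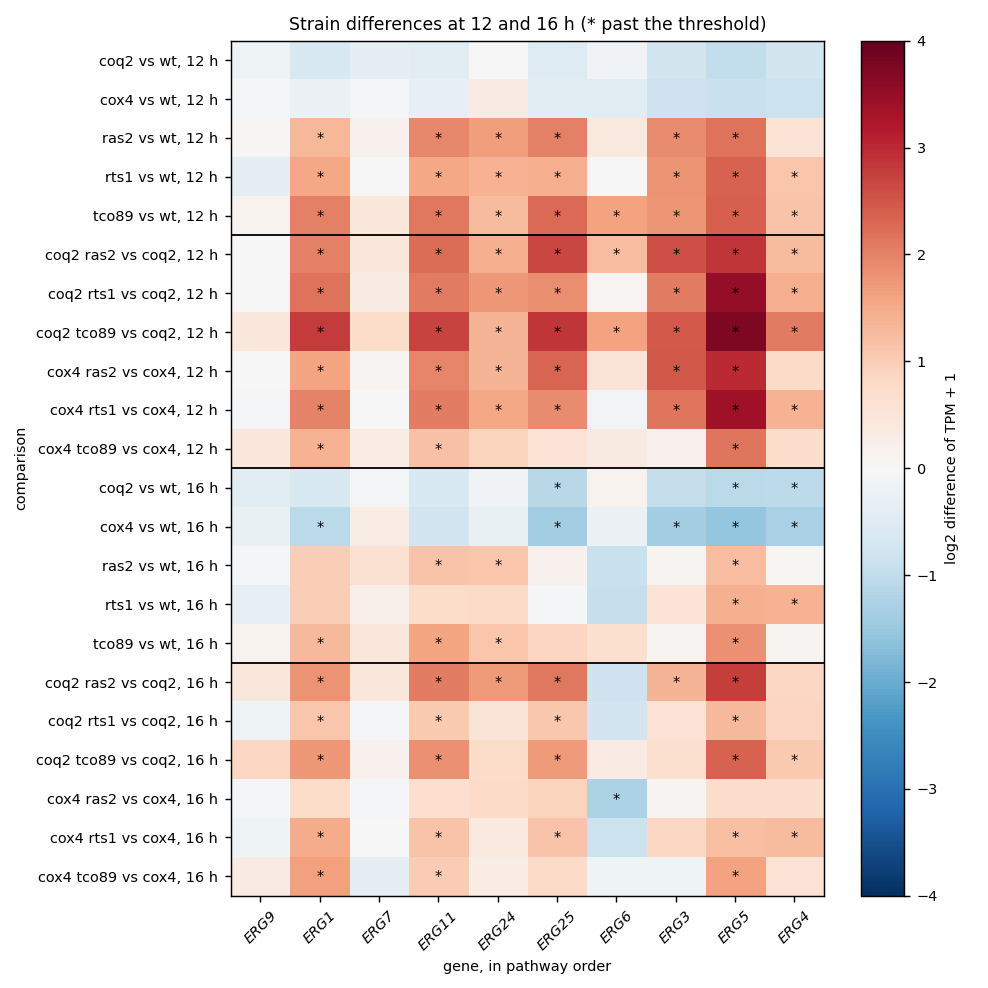
Log2 difference of TPM + 1 for each gene (columns, pathway order) in single mutants against wt and double mutants against their electron transport chain mutant at 12 h (upper blocks) and 16 h (lower blocks). Asterisks mark an adjusted p under 0.05 with at least 2-fold. Red with asterisks fills ERG1, ERG11, ERG24, ERG25, ERG3 and ERG5 in the 3 suppressors and 5 of the 6 doubles at 12 h, and blue with asterisks marks coq2 and cox4 at 16 h.

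Compared with the suppressor single mutant instead, the doubles show what loss of COQ2 or COX4 did in each suppressor background. At 12 h 5 of the 6 doubles differed from their suppressor in none of the 10 genes, where 0.399% to 0.954% of all genes were higher and 0.399% to 1.01% lower. The sixth was cox4 tco89, in which 6 genes were lower than in tco89 (12.9% of all genes lower, 2.2% higher). ERG3 stood at 241 and 257 TPM there against 1401 and 1291 TPM in tco89, a log2 difference of -2.43 (SE 0.10, adjusted p = 4.5e-23). ERG25 stood at 391 and 402 TPM against 1962 and 1652 TPM, a difference of -2.18 (SE 0.09). ERG6 stood at 55.0 and 61.5 TPM against 199 and 183 TPM. ERG11, ERG5 and ERG4 were also lower, by -1.12 to -1.28, and these 3 no longer passed with median-ratio scaling.

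The doubles that carry coq2 or cox4 were also set against each other, a comparison added after the data were seen. At 12 h coq2 tco89 was higher than cox4 tco89 in 7 genes (12.7% of all genes higher, 1.7% lower), with ERG3 at 1350 and 1207 TPM against 241 and 257 TPM. Median-ratio scaling left 5 of these. At the same time coq2 rts1 and cox4 rts1 differed in none (0.0694% higher, 0.208% lower), and coq2 ras2 and cox4 ras2 differed in ERG6 (1.25% higher, 1.63% lower), a call lost without the cox4 ras2 library with the lower ERG6 value. COX4 itself read 2.02 and 1.96 TPM in the cox4 tco89 libraries of 12 h.

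At 16 h each of the 3 doubles without COX4 had lower sterol transcripts than its suppressor strain. The genes lower than in the suppressor alone were ERG1, ERG11, ERG3 and ERG5 in cox4 ras2 (4 genes, 13.7% of all genes lower, 6.78% higher) and ERG3, ERG5 and ERG4 in cox4 rts1 (3 genes, 11.5% and 3.69%). In cox4 tco89 6 genes were lower (29.7% and 3.71%). In coq2 rts1 ERG5 and ERG4 were lower (2 genes, 10.5% and 2.86%), and in coq2 ras2 (1.14% and 0.971%) and coq2 tco89 (1.94% and 0.85%) none of the 10. With median-ratio scaling ERG3 in cox4 rts1 (-0.80) and ERG5 in coq2 rts1 (-0.86) no longer passed. ERG5 stood at 27.3 and 41.0 TPM in cox4 ras2 against 152 and 142 TPM in ras2, and at 202 and 199.6 TPM in coq2 ras2. It stood at 48.4 TPM in cox4 rts1, where a single library was sampled, and 76.4 and 67.2 TPM in coq2 rts1, against 174 and 158 TPM in rts1. It stood at 58.4 and 69.2 TPM in cox4 tco89 and 129 and 180 TPM in coq2 tco89, against 233 and 207 TPM in tco89.

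For cox4 tco89 at 16 h the median of all genes was -0.66 below tco89. With median-ratio scaling 1 of the 6 genes remained, ERG5, and leaving out the library with 72.3 TPM of COX4 removed ERG6. The 16 h libraries of cox4 tco89 also held 103695 and 91808 TPM of CUP1-1, against 31316 and 33978 TPM in tco89. Directly compared at 16 h, coq2 ras2 was higher than cox4 ras2 in 6 genes (6.5% of all genes higher, 4.21% lower): ERG1, ERG11, ERG24, ERG25, ERG3 and ERG5, of which all but ERG24 remained with median-ratio scaling. ERG5 was 5.85-fold higher (log2 2.55, SE 0.15, adjusted p = 7.9e-18) and ERG3 3.14-fold, at 764 and 722 TPM against 226 and 246 TPM. In coq2 tco89 against cox4 tco89 3 genes were higher (15.6% and 2.29%) and none with median-ratio scaling. The count was 2 without the library with 72.3 TPM of COX4 and 6 without the other cox4 tco89 library. In the rts1 pair none differed (0.277% and 0.555%).

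**Figure D4:**
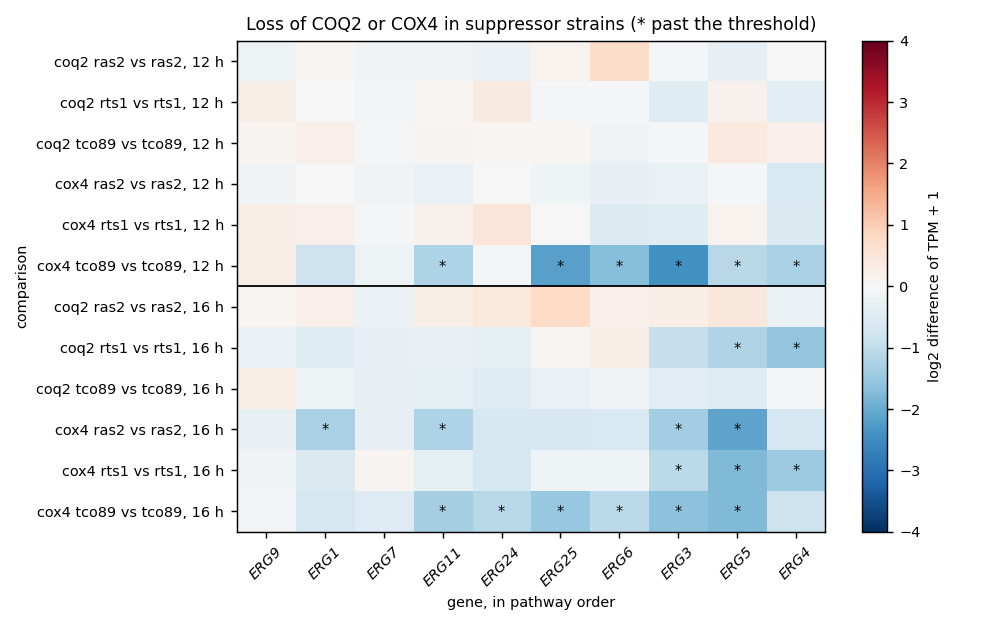
Log2 difference of TPM + 1 between each double mutant and its suppressor single mutant at 12 h (upper block) and 16 h (lower block), for the 10 genes in pathway order. Asterisks mark an adjusted p under 0.05 with at least 2-fold. At 12 h only the row of cox4 tco89 carries asterisks, 6 of them. At 16 h asterisks appear in all 3 cox4 rows and in coq2 rts1.

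The mutants were also compared between 12 and 16 h, again a comparison added after the data were seen. None of the 10 genes rose in any mutant strain over these 4 h. Falls were most numerous in cox4 ras2 (7 genes, 12.3% of all genes lower), coq2 rts1 (6, 4.93%), coq2 tco89 (6, 3.87%) and cox4 rts1 (6, 6.26%). There were 4 in ras2 (1.8%), 2 in rts1 (1.18%), 2 in tco89 (0.555%), 2 in cox4 tco89 (8.86%), 1 in coq2 ras2 (4.63%) and none in coq2 (2.06%) or cox4 (3.24%, 2 without its 16 h library a). ERG25 and ERG5 fell in 7 of 11 mutant strains and ERG3 in 6. The steepest was ERG5 in cox4 ras2, from 301 and 319 TPM to 27.3 and 41.0 TPM, 9.02-fold (log2 -3.17, adjusted p = 7.4e-22). In cox4 rts1 it went from 406 and 418 TPM to 48.4 TPM, and in coq2 ras2 from 262 and 261 TPM to 202 and 199.6 TPM, where it did not pass. In tco89 the fall of ERG25 was lost without the 12 h library with its higher value. For rts1 the count was 7 with median-ratio scaling (5.36% of all genes lower), since the median of all genes there was 0.32 above that of 12 h.

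Summed over the 10 genes, wt held 2997 and 2845 TPM at 0 h, 1439 and 1399 TPM at 12 h and 1694 and 1589 TPM at 16 h. The sum at 12 h was 1080 and 915 TPM in coq2, 1038 and 1018 TPM in cox4 and 1654 and 1788 TPM in cox4 tco89. The other 8 mutant strains stood between 3467 and 5595 TPM at that time, with the highest library in coq2 tco89. ERG25 and ERG3 dominate this sum, so it describes them more than the rest.

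The genes fell into sets by how alike their group means were over the 36 groups. This is a description: the means share libraries and scale. ERG1 and ERG11 were the closest pair (Pearson r = 0.97 on log2(TPM + 1)), with ERG11 and ERG5 at 0.96, ERG11 and ERG24 at 0.92 and ERG25 and ERG3 at 0.92. ERG7, ERG6 and ERG4 were most like each other, at 0.84 to 0.90. Within the 6 genes ERG1, ERG11, ERG24, ERG25, ERG3 and ERG5 the values ran from 0.71 (ERG1 and ERG3) to 0.97. Between those 6 and ERG7, ERG6 and ERG4 they ran from 0.17 (ERG7 and ERG3) to 0.79 (ERG1 and ERG4). ERG9 was not close to any, its highest being 0.62 with ERG1. Of those 6 genes, ERG1, ERG11, ERG25, ERG3 and ERG5 code for the oxygen-using enzymes named above, and ERG24 codes for an enzyme that uses no oxygen. Whether oxygen use bears on the likeness was not tested. Among 4790 genes with a mean of at least 10 TPM, the 5 outside the branch members whose pattern was most like the mean of the 10 were ERG2 (r = 0.97), ALG12 (0.95), TPI1 (0.95), MSC7 (0.95) and TWF1 (0.95). ERG2 is the sterol isomerase of the same pathway. It stood at a mean of 574 TPM in wt at 0 h, 123 TPM in wt at 12 h and 511 TPM in tco89 at 12 h.

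The DNA before the start codons of the 10 genes was searched on both strands of the R64 assembly (sacCer3) for 2 sterol elements. They were the core of the sterol regulatory element bound by Upc2 and Ecm22, TCGTATA, and an anaerobic element bound by Upc2, TCGTTNAG. From 250 bases before to 50 after the start codon, TCGTATA was in 0 of 10 genes and in 4.14% of 6020 promoters, and TCGTTNAG was in 4 genes (ERG9, ERG7, ERG11 and ERG4) and in 2.72% of promoters. In the 500 bases before the start codon, a window chosen after the first was seen, TCGTATA was in 4 genes (ERG1, ERG25, ERG6 and ERG3; 6.98% of 6019 promoters) and TCGTTNAG in 6 (ERG9, ERG7, ERG11, ERG24, ERG3 and ERG4; 5.1%). Either element was in 9 of 10 genes, all but ERG5, and in 11.6% of promoters. The 2 elements cannot overlap in these matches, which lie at separate positions. A match is a stretch of letters and not a shown binding site.

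The matches are printed with 10 bases on each side, 5′ to 3′ on the strand that carries the element, with the element in capitals. They are shown because each element was found before genes of different sets above.
ERG1, 382 bases before the start codon, chrVII:848789-848815, minus strand: tagcgggcctTCGTATAgctcggccga
ERG25, 483 bases before, chrVII:610071-610097, plus strand: ctgcctccctTCGTATAcgggacacag
ERG25, 463 bases before, chrVII:610091-610117, plus strand: gacacagagaTCGTATAcggtaaacga
ERG6, 432 bases before, chrXIII:253406-253432, minus strand: gccccgatctTCGTATAtggtacctcg
ERG3, 286 bases before, chrXII:253565-253591, plus strand: aaattcaggcTCGTATAagtggcacaa
ERG3, 326 bases before, chrXII:253525-253551, minus strand: gccatcggccTCGTATAcaccccggtt
ERG9, 140 bases before, chrVIII:484695-484722, minus strand: ttctcgctgcTCGTTTAGgcactaaacc
ERG7, 182 bases before, chrVIII:238906-238933, plus strand: tcgtttataaTCGTTTAGgtgaaaagtt
ERG11, 134 bases before, chrVIII:121800-121827, minus strand: ataagcagtaTCGTTCAGcgtgtgtatt
ERG24, 276 bases before, chrXIV:110670-110697, plus strand: cacgggatttTCGTTTAGgtgaaaataa
ERG4, 216 bases before, chrVII:472629-472656, minus strand: gaaatgagtcTCGTTTAGttattaaacg

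TCGTATA was found before ERG6, which fell in 12 of 12 strains at 12 h, and before ERG1, which fell in 3 and rose in none. It was also found before ERG25, which rose in 4 and fell in 2, and before ERG3, which rose in 4 and fell in 3. TCGTTNAG was found before ERG7 and ERG4 and before ERG11, ERG24 and ERG3, which belong to another set. It was also found before ERG9, which was not close to any of the others. Whether the elements bear on these patterns was not tested. ERG3 alone held both elements, and its 4 matches lie within 160 bases. The stretch is printed because it is the densest of the 10 promoters in these elements. It runs from 429 to 270 bases before the start codon, on the strand of the gene, with the elements of either strand in capitals, so that CTAAACGA and TATACGA are the reverse complements.
ERG3 upstream stretch, chrXII:253432-253591, plus strand: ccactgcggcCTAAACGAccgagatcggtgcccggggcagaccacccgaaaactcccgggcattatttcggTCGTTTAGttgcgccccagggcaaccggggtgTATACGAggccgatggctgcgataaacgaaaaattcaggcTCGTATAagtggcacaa

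**Figure D5:**
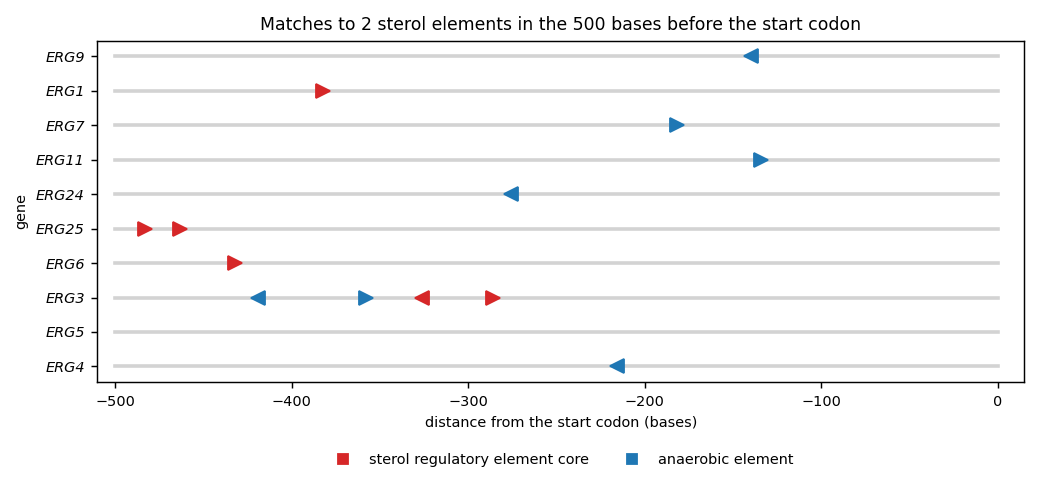
Positions of matches to the sterol regulatory element core (red) and the anaerobic element (blue) in the 500 bases before the start codon of each gene, with arrowheads pointing right for the strand of the gene and left for the other strand. ERG3 holds 4 matches, ERG25 holds 2, ERG5 holds none and each other gene holds 1.

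Other elements were searched in the same first window. The Hap1 motif was in none of the 10 genes and in 0.133% of promoters. The Rox1 core ATTGTT was in 4 genes (ERG9, ERG1, ERG3 and ERG5) and 35.2% of promoters, and the stress element AGGGG was in 1 (ERG9) and 21.6%. In R64 coordinates the coding sequences lie at chrVIII:484845-486179 (ERG9, YHR190W), chrVII:846933-848423 (ERG1, YGR175C), chrVIII:239098-241293 (ERG7, YHR072W), chrVIII:120091-121683 (ERG11, YHR007C) and chrXIV:109095-110411 (ERG24, YNL280C). The others lie at chrVII:610564-611493 (ERG25, YGR060W), chrXIII:251839-252990 (ERG6, YML008C), chrXII:253861-254958 (ERG3, YLR056W), chrXIII:300869-302485 (ERG5, YMR015C) and chrVII:472855-474276 (ERG4, YGL012W). No annotated gene overlaps any of them, and blastn found no other match of them in the genome.

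Genes around the branch were read from lists that were drawn up by function. Of 10 genes of the mevalonate and farnesyl steps, 6 fell in wt between 0 and 16 h and none rose, where 28.9% of all genes fell and 17.7% rose. ERG13, which makes HMG-CoA, went from a mean of 347 to 59.3 TPM, ERG20, farnesyl pyrophosphate synthase, from 644 to 162 TPM, MVD1 from 205 to 58.9 TPM, ERG12 from 85.2 to 25.9 TPM, ERG8 from 108 to 49.0 TPM and BTS1 from 16.0 to 7.61 TPM. None of the 10 passed in coq2 or cox4 against wt at 16 h. Of the 5 other late sterol genes, ERG2 (574 to 142 TPM), ERG26 (111 to 30.7 TPM) and ERG27 (178 to 64 TPM) fell in wt. ERG28, a scaffold of the enzymes that remove methyl groups, stood at 166 TPM in wt at 16 h and was lower in cox4 at 72.1 TPM. ERG29 stood at 51.5 TPM in wt and was lower in both, at 20.6 TPM in coq2 and 17.6 TPM in cox4. ERG2 was lower in cox4 too, at 65.1 TPM. In tco89 at 12 h 4 of the 10 mevalonate genes and 3 of the 5 late genes were higher than in wt (7.08% of all genes), and in ras2 (5.01%) and rts1 (3.9%) 1 of each.

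Of 4 genes for electron donors and heme helpers, 1 fell in wt by 16 h and 2 by 12 h. Without the filter on low values, 28.7% of all genes fell in wt by 16 h and 27.5% by 12 h, and 17.5% rose at each time. The 1 of 4 at 16 h is near the share of all genes. At 12 h CBR1, a cytochrome b5 reductase, went from 319.7 to 146 TPM. CYB5, the cytochrome b5 that feeds electrons to ERG25, ERG3 and other lipid enzymes, went from 266 to 30.0 TPM at 16 h (log2 -3.12, adjusted p = 4.7e-22). It was lower again in cox4, at 13 TPM. At 12 h it stood at 117 TPM in tco89 against 24.5 TPM in wt, a call also made for ras2 and rts1. Of 7 sterol and oxygen transcription factors, ROX1, the repressor of hypoxic genes, rose in wt from 112 to 251 TPM while MOT3 (41.5 to 17.4 TPM) and SUT1 (8.54 to 3.41 TPM) fell. The parts of this list that rose and fell by 16 h are near the shares of all genes. ROX1 was lower than wt at 16 h in coq2 (49.1 TPM, log2 -2.33) and in cox4 (52.4 TPM, log2 -2.24), and SUT2 was lower in coq2 (6.93 against 18.9 TPM). UPC2, ECM22 and HAP1 passed in none of these 3 comparisons.

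In wt at 16 h, where 28.9% of all genes were lower and 17.7% higher, genes of sterol handling went both ways. Of 5 genes of ester synthesis and breakdown, the hydrolase genes YEH1 (30.4 to 7.71 TPM) and YEH2 (26.9 to 10.9 TPM) fell in wt by 16 h. Of 17 genes of uptake and transport, KES1 (138 to 50.1 TPM), OSH6 (47.6 to 17.8 TPM), YSP2 (10.6 to 2.83 TPM) and SIP3 (13.7 to 4.11 TPM) fell, and HES1 (2.17 to 6.97 TPM) and LAM5 (YFL042C, 19.7 to 46.7 TPM) rose, 4 and 2 genes, so the shares of this list are near those of all genes. HES1 was higher in cox4, at 27.0 TPM, than in wt at 16 h. Of 5 genes of HMG-CoA reductase control NSG1 fell, from 75.1 to 13.5 TPM. Of 4 genes of sterol export and acetylation PRY2 (285 to 62.9 TPM) and ATF2 (16.6 to 6.87 TPM) fell, and PRY1 was higher in coq2 than in wt at 16 h (805 against 321 TPM).

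Hypoxic genes include many that are transcribed when oxygen or heme is short. Of 15 listed, 7 rose in wt by 16 h, where 17.7% of all genes did: CYC7 (16.4 to 635 TPM), OLE1 (360 to 1410 TPM), COX5B (100.2 to 253 TPM), TIR2 (13.5 to 34.5 TPM), DAN4 (4.74 to 16.2 TPM), ANB1 (0.556 to 3.93 TPM) and DAN1 (0.111 to 1.68 TPM). AAC3 fell, from 5.05 to 0.915 TPM. ANB1 and DAN1 at 0 h and AAC3 at 16 h stood under 1 TPM, where the lowest value of the data is 0.1 TPM. The size of these changes is uncertain for that reason. HEM13, the oxygen-using step of heme synthesis, was lower in coq2 than in wt at 16 h (13.2 against 30.2 TPM). PAU23, which the list held under its older name DAN2 and which belongs to a family of near-identical genes, read 52.2 TPM in coq2 and 72.2 TPM in cox4 against 23.8 TPM, and its value is uncertain for that reason. OLE1, the fatty acid desaturase, which also uses oxygen, was higher at 12 h in ras2 and tco89 than in wt, at 4201 and 3021 TPM against 1429 TPM.

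Across these 9 lists the median log2 change in wt from 0 to 16 h was -1.47 for the late sterol genes, -1.06 for the mevalonate genes, -0.71 for the electron donors, -0.68 for ester turnover, -0.65 for export and acetylation and -0.48 for the transcription factors. It was 0.06 for uptake and transport, 0.10 for HMG-CoA reductase control and 0.99 for the hypoxic genes, beside -0.24 over all genes and -1.33 for the 10 genes of the branch.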

How the data were processed

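RNA was measured by poly(A)-selected, stranded RNA sequencing with ribosomal depletion, as the labels' protocols state. The authors deposited 1 table of TPM values, with 5803 genes and 71 libraries. Per the submitters' processing notes the tools were bcl2fastq 2.20.0.422 and Salmon 0.9.1 and the build sacCer3, with no roles given. Each library summed to 1000003 to 1000010 TPM with a lowest value of 0.1, so read depth is unknown and no counting interval is given. Libraries were placed in groups from their labels.

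The values were taken as log2(TPM + 1), which understates changes of low genes. Of the genes, 5766 reached 1 TPM in 2 or more libraries (37 did not) and were fitted in limma 3.58.1 (R 4.3.3) with 1 mean per group over all 71 libraries (35 residual degrees of freedom), a variance trend and Benjamini-Hochberg adjustment over all genes within each of 121 comparisons. The group of 1 library, cox4 rts1 at 16 h, was assumed to vary like the others. "Rose", "fell", "higher" and "lower" mean an adjusted p under 0.05 and at least 2-fold. The fit was tested on simulated data.

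The 10 genes and all gene lists were chosen with earlier results of these data known. All 10 are described. Genes of the other lists are named where they passed the threshold in wt at 16 h against 0 h, or in coq2 or cox4 against wt at 16 h, and others named were chosen after their values were seen. Promoter sequences come from the RefSeq R64 assembly, the same sequence as sacCer3, with the start codon as the gene's start and blastn 2.17.0 for near copies. Of the 5803 IDs, 5779 are in that annotation. Alternatives were another pseudocount, other filters, median-ratio and quantile scaling, a fit without the trend, a fit on the compared groups only and each library left out. The 16 h against 12 h comparisons in mutants, those of coq2 and cox4 doubles and the 500-base window were added after the data were seen.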

Additional observations from a re-analysis of the deposited data

Results flagged for a closer look

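The change of the 10 genes since 0 h differed between mutants and wild type by limma's interaction term in 19 of 22 strain-by-time comparisons, all of which share the wt libraries. At 12 h the change was more positive than in wt for 6 genes in ras2 (7.13% of all genes), 6 in rts1 (5.27%), 7 in tco89 (9.35%), 5 in coq2 ras2 (8.22%), 6 in coq2 rts1 (3.35%), 6 in coq2 tco89 (7.96%), 6 in cox4 ras2 (9.95%) and 6 in cox4 rts1 (3.95%). ERG11, ERG25 and ERG5 were among them in all 8 strains, with ERG5 in coq2 tco89 the largest at 5.15-fold.

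At 12 h the change was more negative than in wt for 3 genes in coq2 (ERG3, ERG5 and ERG4, 4.77% of all genes), 1 in cox4 (ERG5, 3.54%) and 1 in cox4 tco89 (ERG3, 11.9%). At 16 h it was more negative for 4 genes in coq2 (ERG25, ERG3, ERG5 and ERG4, 12.2%), 5 in cox4 (the same with ERG1, 10.3%), 2 in cox4 ras2 (ERG3 and ERG5, 12.7%) and 2 in cox4 tco89 (ERG3 and ERG4, 19.4%). It was more positive for 2 genes in rts1 (ERG5 and ERG4, 8.69%), 2 in tco89 (ERG11 and ERG5, 5.62%) and 1 in coq2 ras2 (ERG24, 8.38%). In coq2 tco89 2 genes differed, ERG11 more positive (3.19%) and ERG3 more negative (5.58%). With median-ratio scaling none of the 10 genes differed for coq2 at either time or for rts1 at 16 h. The calls of ERG3 in cox4 tco89 at 12 h, ERG4 in cox4 tco89 at 16 h and ERG24 in tco89 at 12 h were lost as well.

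Several of the smaller counts turned on 1 library. For coq2 at 12 h the count was 0 without its 12 h library b and 1 without wt 0 h library b, wt 12 h library a or coq2 0 h library a. For cox4 at 12 h it was 0 without wt 0 h library b and 2 without wt 12 h library b. For rts1 at 16 h it was 1 without wt 0 h library a, wt 16 h library b, rts1 0 h library b or rts1 16 h library a. For coq2 ras2 at 16 h it was 0 without wt 0 h library a, 2 without wt 0 h library b or its own 16 h library b, and 3 without wt 16 h library a or its own 0 h library a. At 16 h it was 1 for coq2 tco89 without wt library b, 1 for cox4 ras2 without its library a and 4 for cox4 tco89 without its library b. For ras2 at 16 h, where no gene differed, ERG24 did without wt 0 h library b or ras2 16 h library b.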

How the results depend on the processing

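Of 1210 gene-by-comparison values for the 10 genes, 382 passed the threshold, 307 did so under every alternative setting and 300 also with each library left out in turn. A further 70 passed under some alternative only, and none reversed. Median-ratio scaling lost the most, 66, a pseudocount of 5 lost 15 and the fit on the compared groups lost 0. That scaling took the doubles against their suppressor from 21 calls to 11 and the coq2 against cox4 doubles from 17 to 11. It moved single mutants against wt from 30 higher and 8 lower to 28 and 4, and time changes in mutants from 10 higher and 110 lower to 22 and 91. Quantile normalization gave 32 and 3 and 21 and 98. The cause was not tested. In the other gene lists a pseudocount of 5 took 327 gene-by-comparison calls to 227, and median-ratio scaling took them to 300. Promoter matches to either element went from 4 genes to 2 on the forward strand alone and to 9 in the 500-base window.

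With each library left out the calls ranged from 12 to 14 in wt over time, 119 to 122 in mutants over time, 36 to 40 for single mutants, 60 to 65 for doubles against the electron transport chain mutant and 20 to 22 against the suppressor. They ranged from 0 to 0 for coq2 against cox4, 69 to 76 for interaction terms, 35 to 38 for 16 h against 12 h and 16 to 20 for coq2 against cox4 doubles. Leaving out the only cox4 rts1 library of 16 h removes that group, so it has no value. No paired analysis was possible because the columns carry no replicate number. Depth is unknown, so low values such as ERG7 have no counting error here.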
